A study of Homo sapiens with 10 samples.

Results

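Head-to-head promoters of protein-coding genes were examined in the ChIP-seq peak lists of ZMYND8 and FLAG-ZMYND8. A pair consists of protein-coding genes on opposite strands of chromosomes 1 to 22 whose transcription start sites (TSSs) point away from each other, with the minus-strand TSS 1 to 1000 bases to the left of the plus-strand TSS. The region of a pair holds both TSSs and 1 kb on each side, so that it is divided into the gene side of the minus-strand gene, the stretch between the TSSs and the gene side of the plus-strand gene. In the hg19 annotation 859 pairs were found, formed by 1656 of 19229 protein-coding genes (8.61%) at 798 loci. Because a gene can face more than 1 partner, 119 pairs shared a gene with another pair, and the region of 203 pairs (23.6%) held the TSS of a further gene. The TSSs of a pair lay a median of 130 bases apart, with quartiles of 68.5 and 246 bases and a largest distance of 995 bases. The comparison set, called standalone genes here, was the 11514 protein-coding genes (59.9%) with no TSS of any gene on the opposite strand within 5 kb.

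All samples come from Flp-In T-REx HEK293 cells, an established human embryonic kidney line in which a transgene sits at a single integration site and is switched on by doxycycline. The ZMYND8 ChIP used an antibody to the protein in cells that carried 3xFLAG-ZMYND8, wild type or with the N228F substitution, and the labels do not say which of these. For the FLAG-ZMYND8 ChIP the tagged protein was induced with 10 nM doxycycline and recovered through its tag, so this list reports an induced transgene. Chromatin was crosslinked and cut with micrococcal nuclease, each ChIP had 2 replicates, and 1 peak list was deposited for each, with 14577 ZMYND8 and 62846 FLAG-ZMYND8 peaks on the chromosomes used.

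In a head-to-head arrangement a short stretch of DNA serves as the promoter of both genes, and each gene lies where the upstream sequence of its partner would otherwise be. Such promoters are typically rich in CpG dinucleotides, poor in TATA boxes and active in most cell types, and genes of DNA repair, mitochondrial ribosomes and histones are known for this arrangement. Polymerases leave such a promoter in both directions, with a nucleosome-poor stretch between them and positioned nucleosomes that start inside each gene. ZMYND8 is a nuclear protein whose PHD finger, bromodomain and PWWP domain together bind modified histone tails and DNA, including acetylated H3.

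The stretches between the TSSs of 5 pairs are printed first, because they show the sequence between the annotated gene starts and differ in what the lists hold there. All are on the plus strand of hg19, from the base after the minus-strand TSS to the base before the plus-strand TSS, and capitals mark matches to the motifs described further on (CCAAT box, GC box or ETS site, on either strand). PPAT/PAICS at chr4:57301782-57301906 and SARS2/MRPS12 at chr19:39421404-39421583 are long-known pairs. RAD51D/FNDC8 at chr17:33448542-33448633 is a pair without a peak. THAP5/DNAJB9 at chr7:108210195-108210310 and WDHD1/SOCS4 at chr14:55493824-55493947 are closely spaced pairs with peak midpoints of both lists between the TSSs.
PPAT/PAICS: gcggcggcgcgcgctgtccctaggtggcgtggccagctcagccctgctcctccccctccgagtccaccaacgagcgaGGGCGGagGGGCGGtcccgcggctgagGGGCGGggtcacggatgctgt
SARS2/MRPS12: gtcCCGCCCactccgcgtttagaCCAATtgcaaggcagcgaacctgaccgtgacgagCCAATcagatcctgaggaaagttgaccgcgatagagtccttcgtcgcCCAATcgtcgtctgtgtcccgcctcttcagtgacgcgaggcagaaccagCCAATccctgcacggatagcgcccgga
RAD51D/FNDC8: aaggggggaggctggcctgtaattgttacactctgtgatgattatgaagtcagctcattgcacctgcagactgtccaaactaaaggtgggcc
THAP5/DNAJB9: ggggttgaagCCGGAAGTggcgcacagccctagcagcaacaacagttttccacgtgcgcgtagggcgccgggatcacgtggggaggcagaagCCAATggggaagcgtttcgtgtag
WDHD1/SOCS4: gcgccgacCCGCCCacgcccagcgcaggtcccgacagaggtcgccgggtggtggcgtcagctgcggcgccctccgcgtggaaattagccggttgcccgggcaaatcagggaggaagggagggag

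The stretch of PPAT/PAICS held 3 GC boxes and 15 CpG sites in 125 bases, with a GC content of 76.0%. That of SARS2/MRPS12 held 4 CCAAT boxes, 1 GC box and 18 CpG sites in 180 bases. RAD51D/FNDC8 had 0 CpG sites in 92 bases at a GC content of 50.0% and no match to any motif searched. THAP5/DNAJB9 had 1 ETS site, 1 CCAAT box and 10 CpG sites in 116 bases, and WDHD1/SOCS4 had 1 GC box and 15 CpG sites in 124 bases. A match of these letters is a description of the sequence and does not show that a factor binds there.

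Of the 859 pairs, 404 (47.0%, 95% Wilson interval 43.7 to 50.4%) had the midpoint of a ZMYND8 peak in the region. A FLAG-ZMYND8 midpoint was present at 631 (73.5%, 70.4 to 76.3%), and at 47.7% when that list was cut to its widest peaks, as many as the ZMYND8 list holds. Both lists had a midpoint somewhere in the region at 330 pairs (38.4%), with ZMYND8 alone at 74, FLAG-ZMYND8 alone at 301 and neither list at 154 (17.9%, 15.5 to 20.6%). Counted per gene, a ZMYND8 midpoint lay within 1 kb on either side of the TSS of 46.3% of the paired genes, against 29.2% of all protein-coding genes and 23.5% of the standalone genes. For FLAG-ZMYND8 the shares were 71.9%, 50.5% and 41.5%. Where ZMYND8 had a midpoint in this window, FLAG-ZMYND8 had one too at 80.5% of paired genes (77.6 to 83.2%) and 77.7% of standalone genes (76.1 to 79.2%). Intervals here and in the following cover counting error of genes or pairs only: each target has 1 list, the lists give no reads per peak, and the depth and the spread between replicates are unknown.

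The midpoints lay on the gene sides, of 1 kb each, more often than in the shorter stretch between the TSSs, which has a median of 130 bases. In the ZMYND8 list 192 pairs (22.4%) had a midpoint on the minus-strand gene, 187 (21.8%) on the plus-strand gene and 38 (4.42%, 3.24 to 6.01%) between the TSSs. In the FLAG-ZMYND8 list the numbers were 421 (49.0%), 398 (46.3%) and 57 (6.64%, 5.16 to 8.50%). Any overlap with the stretch between the TSSs was found at 16.9% of pairs for ZMYND8 and 23.9% for FLAG-ZMYND8, and with the starts of canonical transcripts 9.78% and 12.9% of pairs had a midpoint there. On both lists the interval of the minus-strand share includes the plus-strand share. Among all protein-coding genes, 19.7% had a ZMYND8 midpoint on the gene side and 38.4% a FLAG-ZMYND8 midpoint.

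Gene-side peaks of paired genes sat close to the start. The median ZMYND8 midpoint lay 227 bases into a paired gene (quartiles 132 and 390) and 312 bases into a standalone gene (quartiles 165 and 523). FLAG-ZMYND8 midpoints lay further in, at a median of 325 bases in paired and 401 bases in standalone genes. By annotation 36.0% of the ZMYND8 midpoints on paired genes were in an untranslated region, 35.8% in an intron, 22.5% in a coding exon and 5.69% in a non-coding exon. At standalone genes 35.7% were in an untranslated region and 41.1% in an intron (38.9 to 43.3%), an interval that overlaps that of the paired intron share (31.1 to 40.8%). Of the FLAG-ZMYND8 midpoints 49.1% were in an intron and 28.6% in an untranslated region, against standalone shares of 52.2% and 27.4%.

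The coverage of single bases around the TSS has 2 humps at the pairs. ZMYND8 peaks covered the base 100 into the gene at 17.5% of the paired genes, the TSS itself at 13.2%, the base 30 upstream at 12.6% and the base 290 upstream at 15.5%. FLAG-ZMYND8 peaks covered the base 200 into the gene at 31.4%, the TSS at 16.4%, the base 40 upstream at 14.3% and the base 330 upstream at 26.9%. The dip between the humps was thus deeper in the FLAG-ZMYND8 list than in the ZMYND8 list. The smallest gap between neighbouring peaks is 849 bases in the ZMYND8 list and 165 bases in the FLAG-ZMYND8 list. Separate ZMYND8 peaks therefore could rarely flank a close pair of TSSs, and the part of this spacing in the dip was not tested. At the median TSS distance the upstream hump falls within the partner gene. At the standalone genes the gene-side maximum was 9.80% for ZMYND8, 170 bases in, and 16.8% for FLAG-ZMYND8, 230 bases in. In the FLAG-ZMYND8 list these genes also had a lower upstream hump, with 10.1% at 230 bases and 8.61% at 70 bases upstream. An upstream hump in that list is thus not particular to the pairs. Paired genes were the less covered ones 1000 bases into the gene, at 1.51% against 2.37% for ZMYND8 and 6.64% against 7.56% for FLAG-ZMYND8.

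**Figure D1:**
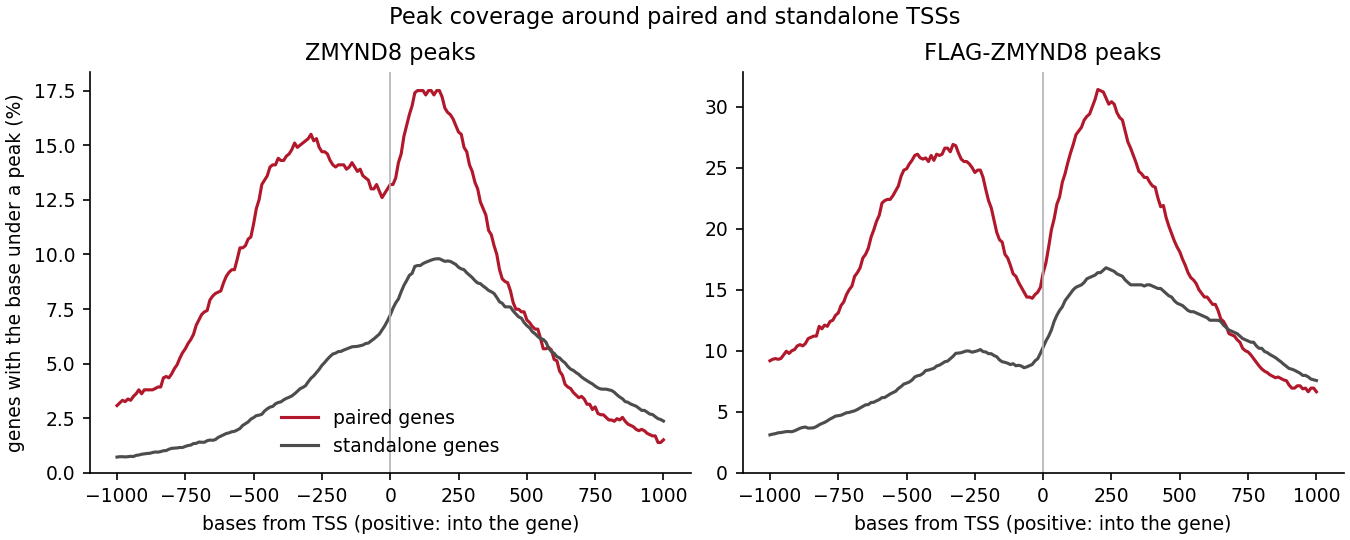
Share of genes (vertical axis, in %) whose base at a given distance from the TSS (horizontal axis, in bases, positive into the gene) lies under a peak, for the 1656 paired genes in red and the 11514 standalone genes in grey, with ZMYND8 on the left and FLAG-ZMYND8 on the right. Paired genes show a hump on each side of the TSS, with maxima of 17.5% and 15.5% for ZMYND8 and of 31.4% and 26.9% for FLAG-ZMYND8. Standalone genes are covered mainly on the gene side, with a low upstream hump for FLAG-ZMYND8 that reaches 10.1%.

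Whether the 2 genes of a pair carry peaks together depends on how a peak is placed. A ZMYND8 midpoint lay on both gene sides at 12 pairs (1.40%) and on 1 side only at 355 (41.3%), whereas a FLAG-ZMYND8 midpoint lay on both sides at 212 pairs (24.7%) and on 1 side only at 395 (46.0%). The ZMYND8 list has no neighbouring peaks less than 849 bases apart on any of these chromosomes, and a single pair of neighbouring midpoints within 1000 bases, so its midpoints rarely could fall on both sides. The smallest gap in the FLAG-ZMYND8 list is 165 bases. Counted by overlap of at least 1 base, which lets a wide peak reach both genes, ZMYND8 peaks touched both gene sides at 103 pairs (12.0%, 9.99 to 14.3%) and FLAG-ZMYND8 peaks at 296 (34.5%, 31.4 to 37.7%), or at 15.9% with that list cut to the length of the ZMYND8 list. ZMYND8 then overlapped the plus-strand gene at 40.2% of the pairs in which it overlapped the minus-strand gene and at 24.0% of the others, with intervals of 34.4 to 46.3% and 20.8 to 27.6%. For FLAG-ZMYND8 these shares were 62.1% (57.6 to 66.3%) and 42.4% (37.6 to 47.4%). A single peak over both TSSs, found at 86 pairs for ZMYND8 and 81 for FLAG-ZMYND8, counts on both gene sides by definition. The higher overlap shares alone therefore do not show separate peaks on the 2 genes. Separate peaks are shown by the midpoints on both sides, at 12 pairs for ZMYND8 and 212 for FLAG-ZMYND8. Placed by midpoint, the ZMYND8 shares were 6.25% and 26.2%, and the FLAG-ZMYND8 shares 50.4% and 42.5%. By overlap the gene sides of all protein-coding genes were touched by ZMYND8 peaks at 23.9% and by FLAG-ZMYND8 peaks at 43.2%, against 29.6% and 54.7% of the paired genes.

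Single wide peaks account for most ZMYND8 coverage of both genes. At 86 pairs (10.0%, 8.18 to 12.2%) 1 ZMYND8 peak covered both TSSs, and at 81 pairs (9.43%, 7.65 to 11.6%) 1 FLAG-ZMYND8 peak did so. Both lists had such a peak at 31 pairs. Peaks over both TSSs had a median width of 878 bases for ZMYND8 and 734 bases for FLAG-ZMYND8, compared with 225 and 263 bases for peaks with their midpoint on a gene side and 151 and 167 bases, the minimum of each list, over all peaks. A peak must be at least as wide as the TSS distance to cover both TSSs, so a large width there follows from how they were chosen. These wide peaks overlapped a peak of the other list in 81.7% of cases for ZMYND8 and in 58.7% for FLAG-ZMYND8, while over all peaks 40.9% and 10.7% did. Wide peaks also overlap others more easily, and this was not corrected for.

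Where a ZMYND8 midpoint lay on 1 gene side only, a FLAG-ZMYND8 midpoint was on the same side at 64.8% of the 355 pairs (59.7 to 69.6%) and on the opposite side at 43.7% (38.6 to 48.9%). FLAG-ZMYND8 was on the same side only at 130 pairs, on both sides at 100, on the opposite side only at 55 and on neither at 70. Over the whole region 81.7% of the pairs with ZMYND8 and 66.2% of those without also had FLAG-ZMYND8. Among genes with a ZMYND8 midpoint on the gene side, the share with a FLAG-ZMYND8 midpoint there was 64.9% for paired and 66.1% for standalone genes, and each interval includes the other share. The side with the peak was more often the side with more G and C in its 1 kb. At 237 of the 355 pairs with ZMYND8 on 1 side (66.8%, 61.7 to 71.5%) that side had more GC bases than its partner, by a median of 42.0 bases over all 355. In the FLAG-ZMYND8 list it was 253 of 395 (64.1%, 59.2 to 68.6%), by a median of 38.0 bases. Neither the part of base composition in recovery and mapping of DNA nor its part in binding was tested.

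Pairs were covered to a like extent whatever the distance between their TSSs. From 337 pairs at 1 to 100 bases, through 246 at 101 to 200, 112 at 201 to 300 and 90 at 301 to 500, to 74 at 501 to 1000 bases, the share with a ZMYND8 midpoint in the region was 49.0%, 41.1%, 47.3%, 53.3% and 50.0%. For FLAG-ZMYND8 it stayed between 72.7% and 75.7%. All these intervals overlap within each list, although the region itself is wider for widely spaced pairs. The share with a midpoint between the TSSs was 1.19% for ZMYND8 and 2.08% for FLAG-ZMYND8 at the closest pairs and 20.3% and 29.7% at the widest. A single ZMYND8 peak over both TSSs was found at 13.9% of the closest and 2.70% of the widest pairs. For FLAG-ZMYND8 such peaks fell from 16.3% at the closest pairs to 1.11% at 301 to 500 bases and were at 6.76% of the widest, 5 of 74.

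**Figure D2:**
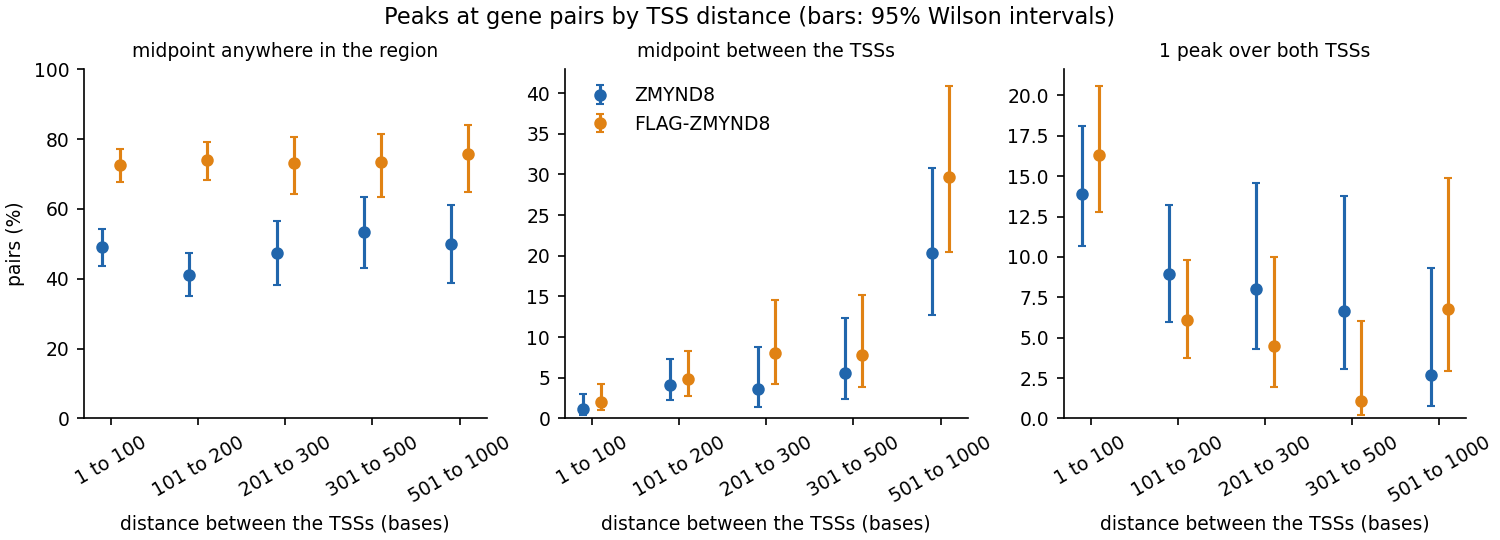
Share of pairs (vertical axis, in %) in 5 classes of the distance between the TSSs (horizontal axis, in bases), for a peak midpoint anywhere in the region on the left, a midpoint between the TSSs in the centre and 1 peak over both TSSs on the right, with points for ZMYND8 in blue and FLAG-ZMYND8 in orange and bars for 95% Wilson intervals. The left shares stay level, near 50% and 74.0%, while midpoints between the TSSs reach 20.3% and 29.7% at pairs more than 500 bases apart.

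The stretch between the TSSs was also compared per length. Over its 170 kb in all, 38 ZMYND8 midpoints gave 0.223 per kb, the same as the mean over the 1 kb gene sides of paired genes. The 58 FLAG-ZMYND8 midpoints gave 0.340 per kb, below the mean of 0.516 per kb on those gene sides. Gene-side midpoints of paired genes gather near the TSS, at a median of 227 bases for ZMYND8 and 325 bases for FLAG-ZMYND8. The gene sides are thus denser near the TSS than these means, and their density was not taken at matched distances. The 1 kb upstream of standalone genes held 0.0696 ZMYND8 and 0.217 FLAG-ZMYND8 midpoints per kb, so that the stretch between TSSs was 3.20 times (2.31 to 4.44) and 1.57 times (1.21 to 2.04) as dense. These ratios depend on the upstream length and on how peaks are placed. By overlap a peak counts for any stretch that it touches, so a short stretch gains more per kb by construction. The ratios by overlap are therefore not comparable with those by midpoint. For ZMYND8 the ratio was 2.01 with 500 bases, 5.49 with 2000 bases and 7.14 by overlap. For FLAG-ZMYND8 it was 1.25 with 500 bases, with an interval that includes 1 (0.960 to 1.62). It was 2.27 with 2000 bases, 4.10 by overlap and 2.55 with the widest FLAG-ZMYND8 peaks only, as many as the ZMYND8 list holds. The upstream sequence of standalone genes was itself denser close to the TSS, so densities were also taken at matched distances. At such distances from the TSS, ZMYND8 had 0.263 per kb in pairs and 0.182 per kb at standalone genes over the first 50 bases, 0.244 and 0.134 from 51 to 100, 0.158 and 0.122 from 101 to 200 and 0.141 and 0.114 from 201 to 300 bases. Further out the values were 0.228 and 0.0799 per kb from 301 to 500 bases and 0.323 and 0.0285 per kb from 501 to 1000 bases, where the sequence of a pair lies within 500 bases of the partner's TSS. For FLAG-ZMYND8 the pairs had the lower value in 1 bin, from 101 to 200 bases, with 0.250 per kb against 0.268 per kb at standalone genes. In the other bins, from the TSS outwards, the values were 0.363 and 0.226, 0.309 and 0.205, 0.401 and 0.314, 0.433 and 0.284, and 0.350 and 0.161 per kb. Each bin of the pairs rests on 6 to 29 counts. Every midpoint between the TSSs was counted once from each of its 2 TSSs. The bins thus reuse the same 38 ZMYND8 and 58 FLAG-ZMYND8 midpoints and are not independent.

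The higher gene-side share of paired genes went with the CpG content of their promoters. On the gene side 22.3% of paired and 17.0% of standalone genes had a ZMYND8 midpoint, a difference of 5.33 points (95% Newcombe interval 3.27 to 7.51). For FLAG-ZMYND8 48.0% and 32.2% gave a difference of 15.8 points (13.3 to 18.4), which was 7.95 points with the list cut to the length of the ZMYND8 list. The promoters, taken from 250 bases before to 50 bases after the TSS, had a median CpG ratio (CpG sites observed over those expected from the C and G content) of 0.877 at paired and 0.579 at standalone genes, and a median GC content of 65.0% and 58.3%. A ratio of at least 0.75 was reached by 76.8% of the paired and 36.1% of the standalone genes. Within classes of this ratio, chosen after the data were seen, the difference in ZMYND8 was 0.943 points below 0.25, -1.96 from 0.25 to 0.5, -2.96 from 0.5 to 0.75, -6.55 from 0.75 to 1 and -3.72 at 1 or more. Its interval excludes 0 in a single class, from 0.75 to 1, where 206 of 942 paired genes (21.9%) and 926 of 3258 standalone genes (28.4%) had a midpoint, so the direction there was the opposite of the overall one (-9.53 to -3.41). Given the spacing of ZMYND8 peaks, a midpoint on the partner leaves little room for another on the gene itself. The part of this spacing in the lower paired shares was not tested. The overlap count, which the spacing touches less, gave -4.14 points in that class (-7.42 to -0.726). In the FLAG-ZMYND8 list the class difference below 0.25, where there are 33 paired genes, was 14.4 points, with an interval that excludes 0 (3.81 to 30.9). The further classes gave 0.726, 2.69, -3.35 and -1.48 points, and these 4 intervals include 0. By overlap the FLAG-ZMYND8 difference from 0.25 to 0.5 was 12.4 points (0.848 to 26.5), with 49 paired genes in the class. Below 0.25 the overlap difference was 19.5 points (7.21 to 36.4). In these 2 classes the paired genes thus kept the higher FLAG-ZMYND8 share by overlap.

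Counted on either side of the TSS, the paired genes had a higher share than the standalone genes in every class of CpG ratio and in both lists. The window of a paired gene then takes in the gene side of its partner. From 0.75 to 1 the ZMYND8 shares were 47.6% and 41.0%, a difference of 6.52 points (2.92 to 10.1), and the FLAG-ZMYND8 shares 73.1% and 67.6%, a difference of 5.59 points (2.26 to 8.77). Only the ZMYND8 difference below 0.25, of 3.21 points, has an interval that includes 0 (-1.22 to 16.8). The nearest likeness to the pairs was in the 1550 protein-coding genes that face a non-coding TSS at the same distance, whose median CpG ratio was 0.861. On the gene side 24.6% of them had a ZMYND8 and 53.1% a FLAG-ZMYND8 midpoint, so that the paired genes differed from them by -2.30 points (-5.24 to 0.632) and -5.09 points (-8.54 to -1.63). On either side of the TSS 41.4% of them had a ZMYND8 and 69.0% a FLAG-ZMYND8 midpoint, beside 46.3% and 71.9% of the paired genes. From 0.75 to 1 their either-side shares were 48.5% and 76.5%, beside 47.6% and 73.1%, so the paired genes were not the higher ones there. At 1 or more the paired genes were higher, with 57.8% and 79.0% beside 47.9% and 75.5%. They were also higher from 0.5 to 0.75, with 37.6% and 69.3% beside 31.9% and 64.1%. From 0.25 to 0.5 they had 24.5% and 44.9% beside 7.61% and 30.4%. Below 0.25 the shares were 6.06% and 30.3% beside 6.67% and 13.3%. In every class the intervals of these sets overlap.

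**Figure D3:**
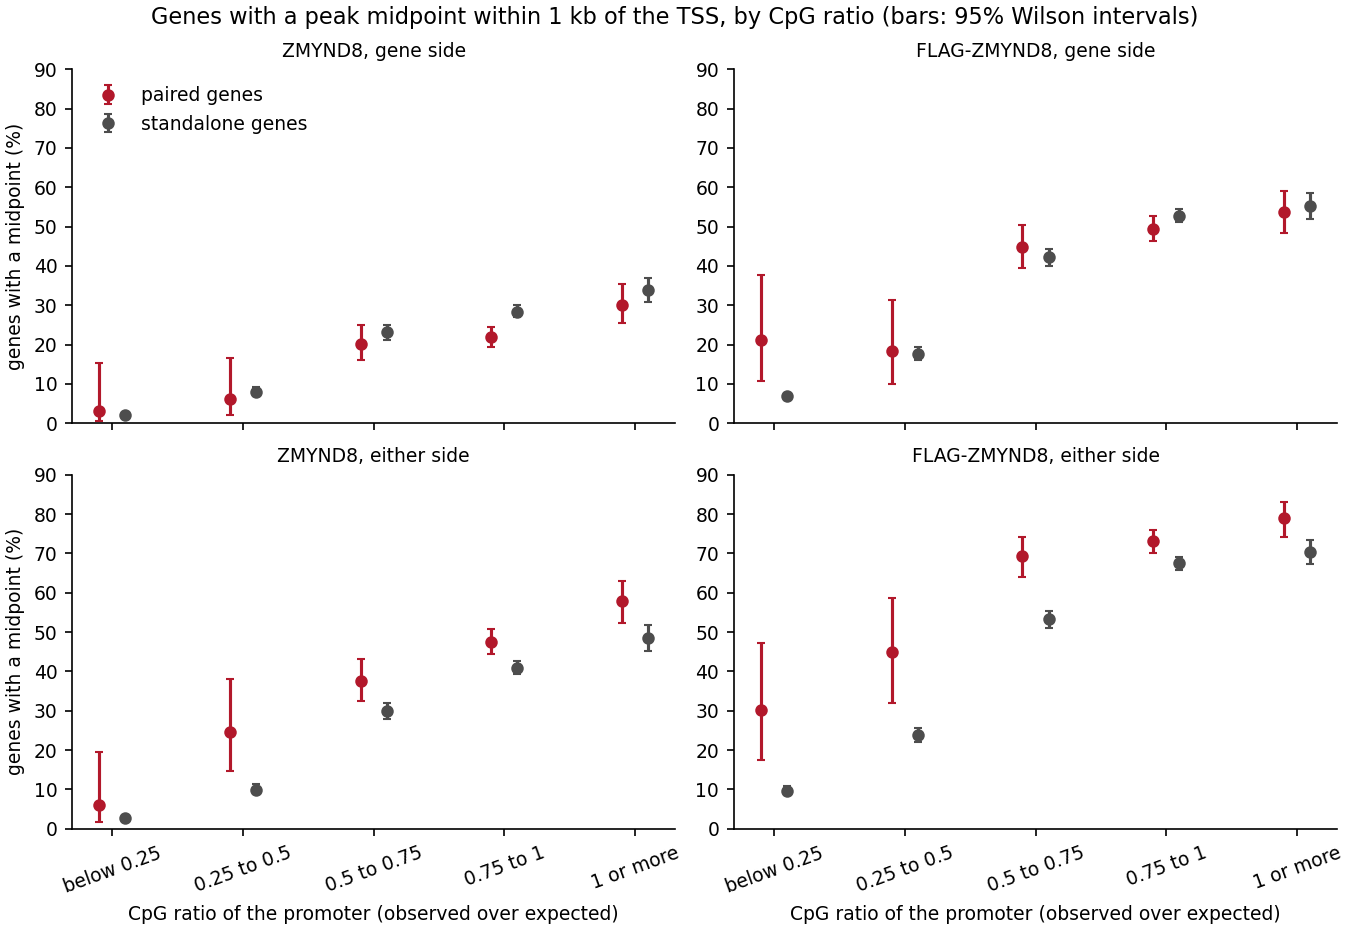
Share of genes with a peak midpoint (vertical axis, in %) on the gene side in the upper row and on either side of the TSS in the lower row, by the CpG ratio of the promoter (horizontal axis), with ZMYND8 on the left and FLAG-ZMYND8 on the right, paired genes in red, standalone genes in grey and bars for 95% Wilson intervals. Shares are higher at CpG ratios of 0.5 or more than below 0.5 in both sets of genes, and on the gene side from 0.75 to 1 the paired genes lie below the standalone genes for ZMYND8, at 21.9% and 28.4%.

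Several short promoter motifs were more frequent at the pairs than at standalone genes. The motif letters were searched on both strands from 250 bases before to 50 bases after each TSS, and the partners of a close pair share part of this window, so the 1656 promoters are not independent. The GC box GGGCGG, which SP1 binds, was in 72.3% of paired, 46.9% of standalone and 52.4% of all protein-coding promoters. The ETS site CCGGAAGT, recognised by GABPA, was in 14.4% (12.8 to 16.2%) of the paired against 3.32% of the standalone and 5.13% of all promoters. It was also more frequent than at genes facing a non-coding TSS, with 9.10% (7.76 to 10.6%). The other motifs were found at genes facing a non-coding TSS in 70.6% of promoters for the GC box, 37.2% for the CCAAT box, 5.23% for GCATGCGC, 5.16% for TATAAA, 3.68% for TGACGTCA, 3.23% for AAGATGGC, 2.32% for CTCGCGAG and 0.387% for ACTACAAT. GCATGCGC, a site of NRF1, was in 8.94%, 2.80% and 3.65% of paired, standalone and all promoters, AAGATGGC of YY1 in 6.46%, 2.39% and 3.02%, and CTCGCGAG of ZBTB33 in 2.90%, 0.782% and 1.21%. TGACGTCA, the cyclic AMP response element, was in 4.11%, 1.92% and 2.28%, and ACTACAAT, a part of the ZNF143 site, in 1.45%, 0.625% and 0.655%. The CCAAT box was in 40.3%, 35.4% and 35.5%, and TATAAA was the rarer one at pairs, with 4.83%, 13.1% and 11.0%. Besides the ETS site, GCATGCGC, AAGATGGC and ACTACAAT had paired intervals above those of genes facing a non-coding TSS. For the remaining motifs the intervals of these sets overlap. No motif searched contains another in full, but GC boxes can overlap each other in longer runs of G and C.

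**Figure D4:**
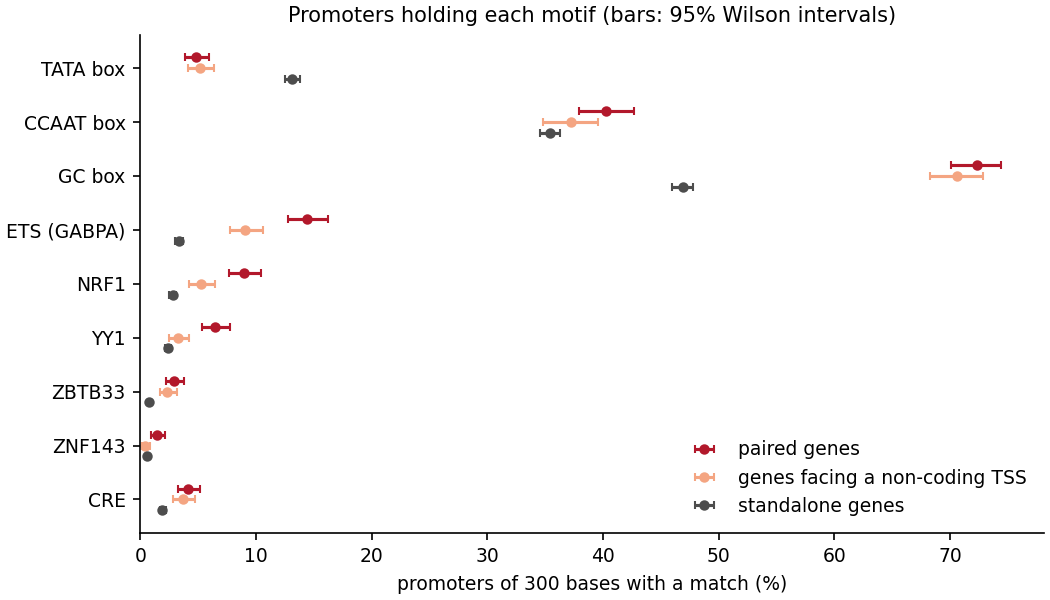
Share of promoters of 300 bases that hold each motif on either strand (horizontal axis, in %), for 9 motifs on the vertical axis, with paired genes in red, genes facing a non-coding TSS in light red, standalone genes in grey and bars for 95% Wilson intervals. The ETS site was in 14.4%, 9.10% and 3.32% of the promoters of these sets, and the TATA box in 4.83%, 5.16% and 13.1%.

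For most motifs, paired genes with and without the motif had gene-side peaks at similar shares. With an ETS site 20.1% had a ZMYND8 midpoint and without it 22.7%, and for FLAG-ZMYND8 the shares were 48.5% and 47.9%. With a GC box they were 23.5% and 19.4% for ZMYND8 and 48.5% and 46.8% for FLAG-ZMYND8, with overlapping intervals. FLAG-ZMYND8 lay at 31 of the 48 promoters with CTCGCGAG (64.6%, 50.4 to 76.6%) against 47.5% of the others, while ZMYND8 lay at 8 of these 48 (16.7%) against 22.5%. Promoters with TATAAA had fewer FLAG-ZMYND8 midpoints, 28 of 80 (35.0%, 25.5 to 45.9%) against 48.7% (46.2 to 51.1%), and 11 of 80 with ZMYND8 (13.8%, 7.85 to 23.0%) against 22.8%. These are 18 comparisons of 9 motifs in 2 lists, and no correction for their number was made.

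The long-known pairs differ in what they carry. Of 12 such pairs looked for, 4 met the rule by their annotated gene starts, and pairs with POLD3, RAD51C or RAD51D were added. PPAT and PAICS, which catalyse steps of purine synthesis, shared a ZMYND8 peak of 1194 bases (chr4:57301465-57302658) over both TSSs, and a FLAG-ZMYND8 peak of 626 bases lay within PAICS. NPAT, a coactivator of histone genes, and ATM, the kinase of the response to DNA breaks, had a FLAG-ZMYND8 peak just inside each gene, with midpoints 147 and 165 bases from the TSSs (chr11:108093090-108093347 in an intron of NPAT and chr11:108093776-108094096 in an untranslated region of ATM), and no ZMYND8 peak. At SARS2/MRPS12, a mitochondrial seryl-tRNA synthetase and a protein of the mitochondrial ribosome, the only peak was a ZMYND8 peak of 151 bases, the minimum width, 948 bases into MRPS12. At LIPT2/POLD3, where POLD3 is a subunit of DNA polymerase delta, it was again a ZMYND8 peak of 151 bases, in a coding exon of LIPT2. RAD51D/FNDC8, placed by the annotated gene starts, had no peak of either list in the region, and its CpG-free stretch is printed above. Neither describes a RAD51D transcript that starts outside this region. RAD51C, which like RAD51D acts in homologous recombination, faces both TEX14 and IGBP1C, whose starts are at 56769416 and 56769406 on chromosome 17, and both pairs hold the same ZMYND8 peak of 756 bases over the RAD51C TSS and the same FLAG-ZMYND8 peak of 1042 bases over all 3 TSSs. PRKDC and MCM4, which encode the catalytic subunit of DNA-dependent protein kinase and a subunit of the replicative helicase, start 7 bases apart and lie under 1 ZMYND8 peak of 1300 bases that extends into MCM4.

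Among the 10 pairs with most bases under ZMYND8 peaks, HES4/ISG15 led with 2945 bases. Its single ZMYND8 peak of 4217 bases (chr1:933280-937496) covers both TSSs, which are 966 bases apart, and overlaps 6 FLAG-ZMYND8 peaks, 4 of them with midpoints in the region. ISG15 is an interferon-induced, ubiquitin-like modifier. MORC2/TUG1 followed with 1867 bases and PSMA1/PDE3B with 1637 bases. PSMA1, a subunit of the proteasome, and PDE3B, a phosphodiesterase, lie under a ZMYND8 peak of 1637 bases and a FLAG-ZMYND8 peak of 1547 bases, whose midpoints are 59 and 159 bases inside PDE3B. MRPL36 and NDUFS6, which encode a mitochondrial ribosomal protein and a subunit of respiratory complex I, start 41 bases apart. Both TSSs lie under a ZMYND8 peak of 1988 bases, placed mostly over MRPL36, and under a FLAG-ZMYND8 peak of 653 bases. At APTX/DNAJA1, SERAC1/GTF2H5 and KLHL22/MED15 a single ZMYND8 peak of 1398, 1354 and 1354 bases covers both TSSs, while 3 FLAG-ZMYND8 peaks lie on the 2 gene sides of each pair and none between the TSSs. Aprataxin (APTX) repairs DNA ends, DNAJA1 is a co-chaperone, GTF2H5 a subunit of TFIIH and MED15 a subunit of Mediator.

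The 10 pairs with midpoints of both lists between the TSSs include 5 that lie at most 154 bases apart, of which 4 are described. At WDHD1/SOCS4 the peaks are nearly congruent, with 656 bases (chr14:55493616-55494271) and 722 bases (chr14:55493549-55494270). WDHD1 acts at replication forks and SOCS4 belongs to the suppressors of cytokine signalling. The FLAG-ZMYND8 peak of THAP5/DNAJB9, with 1307 bases, extends beyond the ZMYND8 peak of 856 bases on both sides. DNAJB9 is a co-chaperone of the endoplasmic reticulum. At LACTB2/XKR9 the widths are 704 and 734 bases. TLCD3B and its unnamed protein-coding partner ENSG00000285043 carry the narrowest peaks of the 4, with 266 and 167 bases.

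Pairs with peaks of 1 list alone were not confined to narrow peaks. Of the 304 pairs that FLAG-ZMYND8 peaks overlap and ZMYND8 peaks do not, CDC42SE1/GABPB2 had most bases covered, 1778, by peaks of 983 and 1052 bases on either gene side. RRP12/PGAM1 likewise had a peak of 892 bases in RRP12 and one of 965 bases in PGAM1, a glycolytic enzyme. At FUT1/FGF21 a peak of 1402 bases covers both TSSs. FGF21 is a metabolic hormone. RPL35/ARPC5L and RPL12/LRSAM1, each with a gene of the large ribosomal subunit, have peaks of 1206 and 973 bases over both TSSs. Of the 67 pairs with a ZMYND8 midpoint and no FLAG-ZMYND8 peak in the region, TSR1/SGSM2 had most bases covered, by a peak of 1420 bases (chr17:2239385-2240804) that spans TSSs 841 bases apart. AKR7A2/SLC66A1, SCGB2B2/ZNF302 and IDI1/WDR37 each lie under a ZMYND8 peak of 974, 929 and 912 bases that covers both TSSs, and at LIPA/IFIT5 the midpoint of a peak of 947 bases lies 598 bases inside IFIT5. IDI1 is an enzyme of the mevalonate pathway and LIPA the lysosomal acid lipase.

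**Figure D5:**
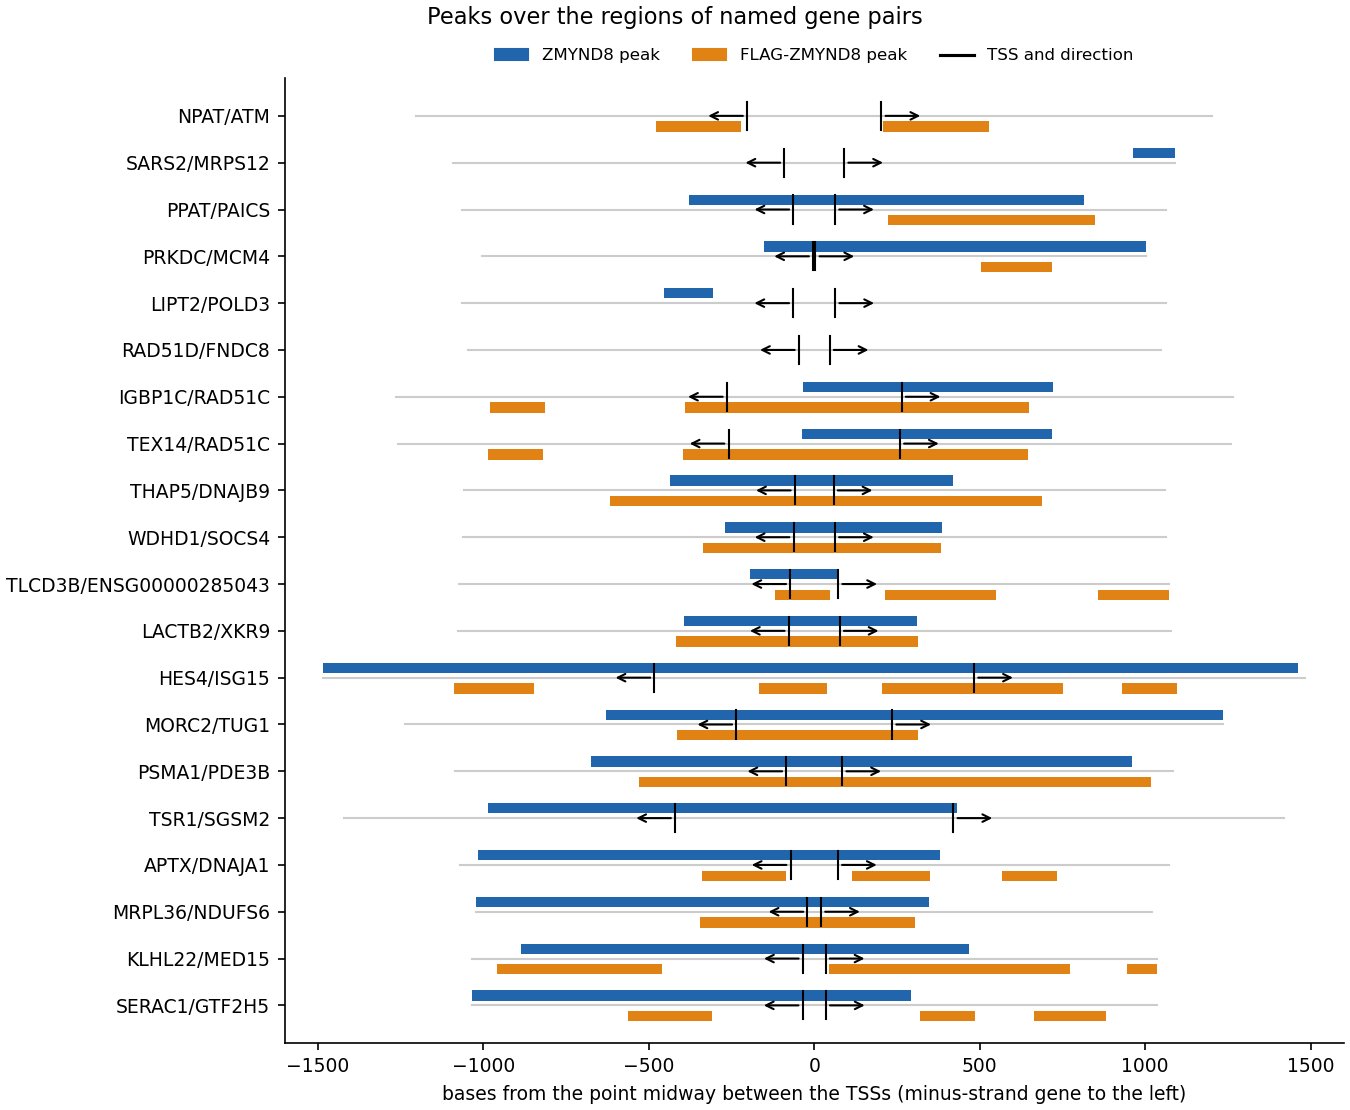
Peaks over the regions of 20 named pairs, with ZMYND8 in blue above and FLAG-ZMYND8 in orange below the line of each pair, by distance from the point midway between the TSSs (horizontal axis, in bases, minus-strand gene to the left). Grey lines mark the region, black ticks the TSSs and arrows the direction of transcription, and peaks are clipped at the end of the region. NPAT/ATM has a FLAG-ZMYND8 peak inside each gene, WDHD1/SOCS4 a pair of nearly congruent peaks over both TSSs and RAD51D/FNDC8 no peak.

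Genes of several functions were frequent among the pairs. Of 136 listed genes of DNA repair and replication 47 (34.6%) were in a pair, of 67 replication-dependent histone genes 23 (34.3%), of 96 genes of oxidative phosphorylation 22 (22.9%) and of 78 genes of mitochondrial ribosomal proteins 17 (21.8%), against 8.61% of all protein-coding genes. Zinc finger genes were the less frequent, 33 of 553 (5.97%). In ZMYND8 the pairs with a midpoint were 27 of 47 for DNA repair and replication (57.4%, 43.3 to 70.5%), 10 of 18 for mitochondrial ribosomal proteins, 5 of 12 for histones, 7 of 23 for oxidative phosphorylation (30.4%, 15.6 to 50.9%) and 19 of 29 for zinc fingers (65.5%, 47.3 to 80.1%), beside 47.0% of all pairs. With FLAG-ZMYND8 they were 33 of 47, 10 of 18, 9 of 12, 14 of 23 and 20 of 29, beside 73.5% of all pairs. The interval of each of these shares includes the share of all pairs, except that of the zinc finger pairs for ZMYND8, whose lower end is just above it. Cytosolic ribosomal protein pairs had ZMYND8 at 5 of 10 and FLAG-ZMYND8 at 8 of 10.

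Within these groups the peaks took different forms. H2BC13/H2AC13, genes of histones H2B and H2A, lie under a ZMYND8 peak of 1027 bases over both TSSs with a FLAG-ZMYND8 peak in each coding exon. At H2AC25/H2BC26 the ZMYND8 peak has the minimum 151 bases, and FLAG-ZMYND8 peaks of 728 and 535 bases lie on the 2 gene sides. RAD52/ERC1, where RAD52 takes part in recombination, has a ZMYND8 peak of 1271 bases and a FLAG-ZMYND8 peak of 796 bases, both on the side of ERC1. TCP1/MRPL18 is among the 12 pairs with ZMYND8 midpoints on both gene sides, at 651 bases into TCP1, a chaperonin subunit, and 353 bases into MRPL18. COL4A4/COL4A3, collagens of the basement membrane, share a ZMYND8 peak of 808 bases over both TSSs, and B2M, the light chain of class I histocompatibility molecules, has 1 ZMYND8 and 2 FLAG-ZMYND8 midpoints on its side of PATL2/B2M.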

How the data were processed

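ChIP-seq peaks of ZMYND8 and FLAG-ZMYND8 in HEK293 cells were analysed. Per the labels and the submitters' processing notes, the authors aligned reads with BWA (0.7) to hg19, with up to 2 mismatches allowed, and used HOMER. Peak-calling settings and the combination of replicates are not given in the sources used here. The deposited files hold a position and a score for each peak, and the score is 1 in every row, so that peaks were described by place and width.

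TSSs were the 5′ ends of genes in GENCODE release 44 mapped to GRCh37, the build of hg19. A peak was placed by its midpoint, or by overlap of at least 1 base where stated. A standalone gene had no opposite-strand TSS within 5 kb. Motifs, GC content and CpG ratio were read from the GRCh37 genome. Shares have 95% Wilson and differences 95% Newcombe intervals, and no test was run, since each target has 1 list. The placing of peaks was tested on simulated peaks, where 746 of 746 planted patterns were recovered. The members, gene lists and motifs were chosen with earlier results of these data known. Pairs were named by rule: textbook pairs, the 10 with most bases under ZMYND8 peaks, the 5 with most under FLAG-ZMYND8 peaks and no ZMYND8 peak, the 5 closest with midpoints of both lists between the TSSs, up to 3 per functional group, and the 5 with most bases among those with ZMYND8 alone. Sequences were those between the TSSs of pairs so named. The stretches of 5 of these pairs are printed, and 1 named pair is not reported here. The gene groups were written by hand from symbols, and the proteasome pattern also took PSME3IP1. Samples of H3K14ac, H3K27ac and input DNA were left out. Alternatives covered the flank, the placing of peaks, their width, the TSS, the pairs kept and the standalone set. The tools were pysam 0.24.0 for sequence, pandas 2.3.3 and numpy 2.4.6 for tables, matplotlib 3.10.9 for figures and scipy 1.17.1 for intervals, run in Python 3.11.15.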

Additional observations from a re-analysis of the deposited data

How the results depend on the processing

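For 13 results and 18 alternatives, 132 combinations were computed: 86 stayed within the counting interval of the reported value, 40 moved beyond it and 6 turned in direction. The 6 are gene-side differences between paired and standalone genes within classes of the CpG ratio, added after seeing the data. For ZMYND8 (5.33 points overall) they were -1.96, -2.96, -6.55 and -3.72 points from a ratio of 0.25 upwards, and 0.943 below it. For FLAG-ZMYND8 (15.8 overall) they were -3.35 and -1.48 points from 0.75 upwards, and 0.726 and 2.69 from 0.25 to 0.75. By overlap in place of the midpoint these differences were 9.49 and 18.9 points, pairs with a peak between the TSSs 16.9% (ZMYND8) and 23.9% (FLAG-ZMYND8), and the density ratios 7.14 and 4.10. By midpoint in place of overlap, both gene sides were reached at 1.40% and 24.7% of pairs.

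With canonical transcript starts, which gave 951 pairs, midpoints were in the region at 52.2% and 77.3% and between the TSSs at 9.78% and 12.9%, and FLAG-ZMYND8 reached both gene sides at 38.1%. Pairs at most 500 bases apart had 2.93% and 4.46% between the TSSs. A flank of 500 bases gave 41.0% and 64.0% in the region, a ZMYND8 density ratio of 2.01, 28.3% with FLAG-ZMYND8 on both gene sides and 75.6% of ZMYND8 pairs with FLAG-ZMYND8. One of 2000 bases gave 78.2% in the region for FLAG-ZMYND8, density ratios of 5.49 and 2.27, 40.0% on both gene sides and 86.0% of ZMYND8 pairs. Peaks wider than the minimum gave 32.5% and 60.7% in the region, 9.78% and 24.4% on both gene sides and a FLAG-ZMYND8 difference of 11.6 points. Standalone genes set by protein-coding TSSs alone also gave 11.6 points. The FLAG-ZMYND8 list at the length of the ZMYND8 list, widest peaks first, gave 47.7% in the region, close to the ZMYND8 share, 4.19% between the TSSs, 7.95 points, a density ratio of 2.55, 15.9% on both gene sides and 57.9% of ZMYND8 pairs. Fewer peaks, wider zones, other pairs and overlap counted over short stretches change these values by construction, and other causes were not tested. No paired analysis was possible because each target has 1 list that names no replicate, and no replicate could be left out for the same reason. The depth is unknown, so an absent peak may be undetected.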
